A study of Mus musculus with 61 samples.

Results

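The TNF superfamily ligands are a family of small proteins that T cells and other immune cells carry on their surface or release. 7 of them were followed here in activated CD4 T cells: Tnfsf11 (RANKL), Fasl (Fas ligand), Tnf, Lta (lymphotoxin alpha), Ltb (lymphotoxin beta), Cd40lg (CD40 ligand) and Tnfsf8 (CD30 ligand). They were found by gene symbol in the platform annotation and are 7 of the 12291 genes named on the arrays, with 9 probe sets in all. Each gene is given by its brightest probe set, and the second probe sets of Tnfsf11 and Fasl are described beside it.

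The ligands act as trimers. Most are made as membrane proteins, some are cut from the surface by proteases, and they bind receptors of the TNF receptor superfamily, which recruit TRAF adaptors to switch on NF-kB or death-domain proteins to switch on caspases. Activated CD4 T cells use them to talk to other cells: CD40 ligand helps B cells and dendritic cells, RANKL supports dendritic cells and osteoclasts, Fas ligand kills cells that carry Fas, and TNF and the lymphotoxins drive inflammation and the build-up of lymphoid tissue. IL-27 is a cytokine of the IL-12 family, made mainly by antigen-presenting cells.

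The cells were naive CD4 T cells of C57BL/6 mice, stimulated in culture through CD3 (antibodies at 1 ug/ml) either alone (ctrl) or with IL-27 at 25 ng/ml (IL27). One protocol text, IL-27 included and with a second antibody written as directed to CD8, is attached to every sample, so the arm of each array was read from its title. On HT_MG-430A arrays 18 times between 0.5 and 72 h were sampled, 8 of them with a pair of arrays per arm and 10 with a single one, which makes 26 arrays per arm. On Mouse430A_2 arrays there was 1 array per arm at 4, 16 and 48 h, a control array at 0 h, and a pair of 48 h arrays called GFPP and GFPN, names left unexplained by the labels. The labels give times as bare numbers, taken here as hours, and mark the second array of a time with an unexplained suffix d. Whether arrays of one group hold RNA of separate cultures or animals is not said there, and p-values therefore reflect only how far these arrays vary.

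Intensities are on a linear scale as deposited, each array type with a normalization of its own, and array medians lay between 28.0 and 36.6 on HT_MG-430A. A difference is the IL27 minus ctrl value of log2(intensity + 32), a scale that understates changes of dim genes. It was estimated with limma over 7163 genes in an early window of 0.5 to 4 h (5 arrays per arm), a middle window of 8 to 20 h (9 arrays per arm) and a late window of 25 to 72 h (12 arrays per arm), and a gene was called at an adjusted p under 0.05. The array labelled 12 h control stood apart from the rest. Its highest correlation with any other array was 0.871, against 0.9765 or more for every other HT_MG-430A array. Calls that change without it are given both ways. As defining T cell transcripts, Cd3d, Cd3e, Cd3g, Cd247, Cd4, Cd5, Cd2 and Cd28 all lay above the array median on more than 26 of the 52 arrays. Cd8a, the NK cell genes Ncr1, Klrb1a and Klra8, the B cell genes Pax5 and Blnk, and the myeloid genes Itgam, Cd14, Adgre1, Itgax and Flt3 lay above it on no array. Other markers did on some arrays: Cd8b1 on all 52, Lyz2 (myeloid) on 11, and Cd79b and Ms4a1 (B cell) on 7 and 6. Klrc1 (NK cell), Csf1r and Csf3r (myeloid) did on 2 each, and Cd79a (B cell) on 1. The early means of Lyz2 were 81.7 on control and 100.5 on IL-27 arrays. Transcript per cell and the share of cells that make a transcript cannot be told apart in these bulk samples.

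Across the course Ltb and Cd40lg were called in no window. Tnfsf11 and Fasl were lower with IL-27 in both the middle and the late window. Tnf and Lta were higher with IL-27 in the middle window, and late Tnf did not pass the test while Lta was lower. Tnfsf8 did not pass the test in the first 2 windows and was lower with IL-27 late. No member was called in the early window, where 2.32% of all tested genes were. 4 of 7 were called in the middle window, against 10.7% of all genes, with 2 higher and 2 lower where 4.82% of genes were called higher and 5.85% lower. 4 of 7 were called in the late window, all lower with IL-27, against 18.5% of all genes called in either direction and 9.77% called lower. The median difference of the 7 was -0.17 early, 0.16 in the middle and -0.59 late, beside medians over all genes of -0.03, -0.02 and -0.01.

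**Figure D1:**
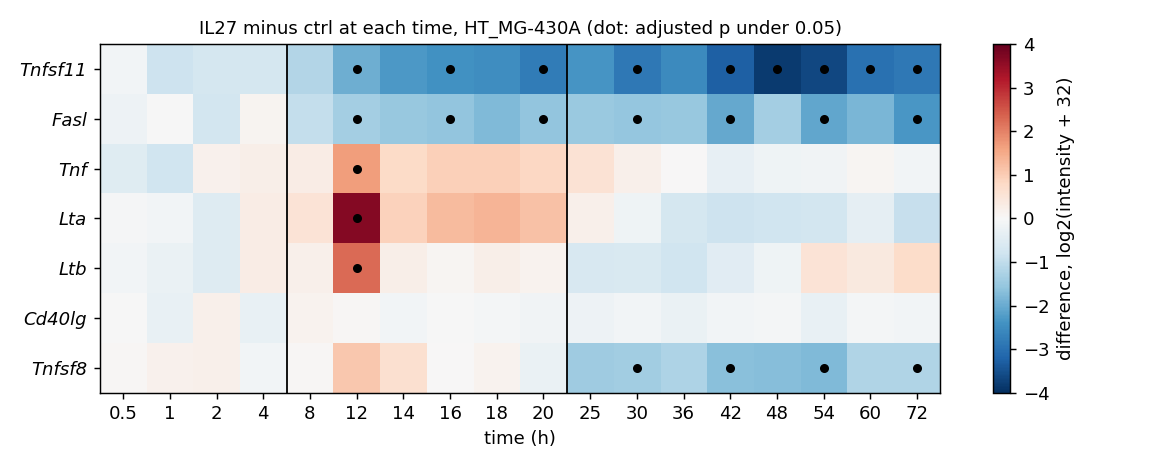
Heat map of the IL27 minus ctrl difference in log2(intensity + 32), 1 row per ligand and 1 column per time in hours on HT_MG-430A arrays, blue for lower and red for higher with IL-27, with dots at an adjusted p under 0.05 and black lines between the windows. Tnfsf11 lies below 0 at all 18 times and Fasl at 17, while the highest values of Tnf, Lta and Ltb fall at 12 h, where the control array stood apart.

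RANKL, the product of Tnfsf11, drives osteoclast formation and prolongs the survival of dendritic cells, and activated T cells are a known source. In control cells its intensity was 151 at 0.5 h and 325.4 at 1 h, 888.9 and 1867 on the arrays of 2 h, and 2402 at 4 h. With IL-27 the same times gave 136.3, 168.6, 547.3 and 1120, and 1476. Within this window both arms were lowest at 0.5 h and highest at 4 h, and the IL-27 arm lay below the control arm at all 4 times. The early difference was -0.61 ± 0.27 (SE; adjusted p = 0.384 by limma) and did not pass the test.

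From 8 to 20 h the control arm had a lowest Tnfsf11 intensity of 1181, a median of 1486 and a highest of 2090 over 9 arrays. The IL-27 arm had 151.9, 258.8 and 589.3, so that no array of one arm reached the range of the other. Such a complete separation was found for 0.726% of all tested genes in this window. The means differed 4.55-fold, and the log2 difference was -2.17 ± 0.20 (SE; limma, adjusted p = 1.26e-09).

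Late in the course the gap was wider. The control arm ran from 474.1 through a median of 1278 to 2262 over 12 arrays, and the IL-27 arm from 43.57 through 124.1 to 238.8. The arms again did not overlap, as for 0.656% of tested genes. The means differed 10.3-fold, and the difference was -3.07 ± 0.18 (SE; limma, adjusted p = 5.49e-16). By single times the transcript was called lower at 12, 16, 20, 30, 42, 48, 54, 60 and 72 h, 9 of the 18. At 12, 48 and 60 h each arm is 1 array, and the test there assumes that a lone array varies like the pairs of the other times. At 12 h the dimmer probe set went the other way, at 18.78 in control and 127.5 in IL-27 cells. Both arms had their lowest late value at 72 h, where the control arrays gave 474.1 and 1244, and the IL-27 arrays 43.57 and 133.4.

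Steps between windows were also compared within each arm, with a mean per window and no term for time. Their spread therefore includes the times of a window, and they do not test a difference between the arms. In the control arm Tnfsf11 was higher in the middle than in the early window by 1.02 ± 0.41 (SE; limma, adjusted p = 0.0312), in a comparison that calls 64.9% of all genes, and the late minus middle difference was -0.36 (adjusted p = 0.367). In the IL-27 arm the middle minus early difference was -0.55 (limma, adjusted p = 0.247), but it was called without the 0.5 h array (-0.95, adjusted p = 0.0422) and was -0.09 without the 2 h arrays. The gene fell by 1.26 on the log2 scale from the middle to the late window of that arm (limma, adjusted p = 0.00208), in a comparison that calls 59.9% of genes. The rise in control cells was not called without the arrays of 0.5, 1, 16 or 20 h, with differences of 0.50, 0.74, 0.96 and 1.01 (limma, adjusted p = 0.228, 0.135, 0.0624 and 0.0528), and without 2 h it was 1.53 (adjusted p = 0.00678).

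The second, dimmer probe set of Tnfsf11 gave the same direction as the bright one, with -1.41 in the middle window (limma, adjusted p = 0.000167 over 11498 probe sets) and -2.49 late (adjusted p = 5.6e-11). The 12 h control array was the exception. There the bright probe set read 1696 and the dim one 18.78, a ratio of 90.3, while on the other 51 arrays the ratio lay between 1.58 and 8.07 with a median of 2.7. The middle-window difference of Tnfsf11 without that array was -2.20 (limma, adjusted p = 5.48e-09).

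**Figure D2:**
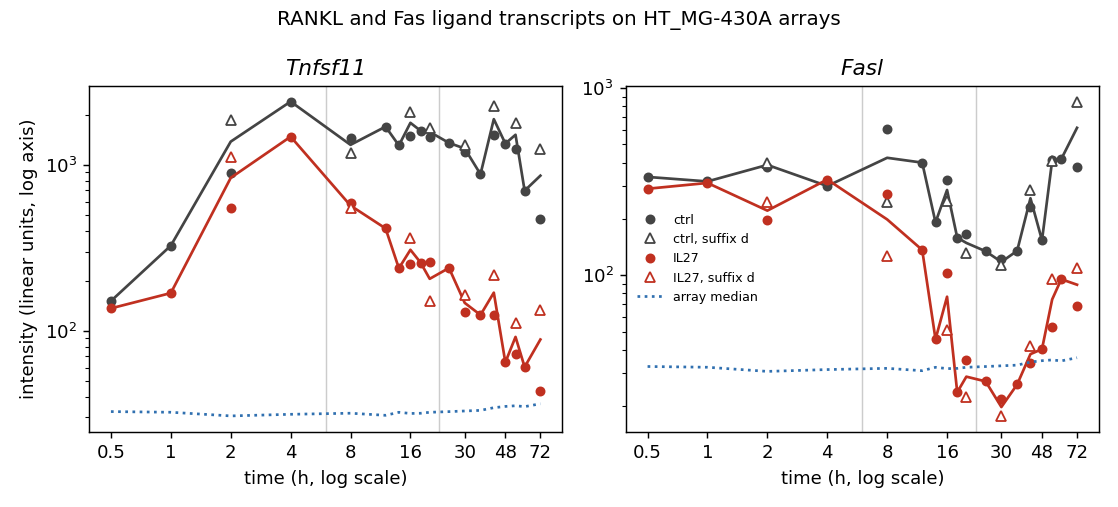
Intensity of Tnfsf11 and Fasl (log axis) against time in hours (log axis) for each HT_MG-430A array, with control arrays in grey and IL-27 arrays in red, triangles for arrays of suffix d, a line through the mean of each time, grey vertical lines at the borders of the windows and a dotted line for the array median. From 25 h no IL-27 array of either gene reaches the control arrays, which lie at or above 474.1 for Tnfsf11 and 113.8 for Fasl.

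Fas ligand triggers death of cells that carry Fas, T cells themselves among them, and is a main effector of killing by T cells and NK cells. In the first hours Fasl was already present in both arms. The control arrays read 335.1 at 0.5 h, 317.1 at 1 h, 380.6 and 396.3 at 2 h, and 299.6 at 4 h. The IL-27 arrays read 289.8, 311.2, 196.5 and 246.3, and 324.6. At 2 h the IL-27 arrays lay below the controls, at 4 h the IL-27 array lay above, and the window difference of -0.32 ± 0.21 (SE; limma, adjusted p = 0.665) did not pass the test.

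In the middle window Fasl ranged from 132.1 through a median of 246.6 to 601.4 in control cells and from 22.26 through 50.7 to 271.2 with IL-27. The ranges overlapped, since the highest IL-27 array, at 8 h, was above several controls of later times. The difference was -1.43 ± 0.16 (SE; limma, adjusted p = 3.06e-08), with the IL-27 arm lower at all 6 times. Within the IL-27 arm Fasl fell by 1.54 on the log2 scale from the early to the middle window (limma, adjusted p = 0.000209), where 68.5% of all genes were called. The same step in control cells was -0.43 (limma, adjusted p = 0.302).

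Late Fasl intensities were 113.8, 257.8 and 846.8 (lowest, median, highest of 12) in control cells and 17.73, 41.13 and 109.9 with IL-27. No IL-27 array reached the lowest control array, a separation of the arms found for 0.656% of tested genes. The means differed 5.77-fold. The difference was -1.85 ± 0.14 (SE; limma, adjusted p = 3.96e-13). Both arms had their lowest late values at 30 h and their highest at 72 h, where the control arrays read 379.1 and 846.8 and the IL-27 arrays 68.17 and 109.9. Single-time calls were made at 12, 16, 20, 30, 42, 54 and 72 h, of which 12 h has 1 array per arm. There the dimmer probe set read 17.59 in control and 72.4 in IL-27 cells, the opposite direction.

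The second, dimmer Fasl probe set differed between arms by -0.80 in the middle window (limma, adjusted p = 0.00513 over probe sets) and -1.58 late (adjusted p = 3.65e-09). On the 12 h control array it read 17.59 where the bright one read 399.5, a ratio of 22.7 against 0.902 to 2.79 on the other 51 arrays. On that array the dim probe sets of Tnfsf11 and of Fasl were both lower than on any other control array.

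Of the markers of other cell types, 1 of CD8 T cells, 2 of B cells and 1 of myeloid cells were bright enough to be tested, and 0 of NK cells. Those of B and myeloid cells were called in no window. Cd8b1, which encodes one chain of the CD8 co-receptor, was lower with IL-27 by limma both in the middle window (-0.58, adjusted p = 0.00015) and late (-0.62, adjusted p = 2.49e-06; mean intensity 167.6 in control and 95.19 in IL-27 arrays), while Cd8a lay under the array median on every array. The summed CD8 marker level was 100.3 to 158 on control and 55.58 to 135.9 on IL-27 arrays of the middle window, and 110.2 to 325.6 on late control arrays and 65.84 to 151.4 on late IL-27 arrays. The summed NK marker level covers 4 genes, of which none lay above the array median on more than 26 arrays. It was 45.02 to 56.89 on late control arrays and 44.99 to 90.78 on late IL-27 arrays. Of 8 CD4 T cell markers, 0 were called higher and 2 lower in the early window, where 2.32% of all genes were called. These were Cd4 (-0.41) and Cd28 (-0.53, limma, adjusted p = 0.0258 and 0.022). In the middle window 2 were called higher and 2, Cd4 among them, lower (median difference -0.13), where 10.7% of all genes were called. In the late window 3 were higher and 1 lower (median 0.17), where 18.5% of all genes were called. Late, Cd5, Cd28 and Cd247 were higher with IL-27 (0.47, 0.47 and 0.33, limma, adjusted p = 0.00225, 0.000104 and 0.000963) and Cd4 lower (-0.30, adjusted p = 0.00126). The part of these shifts in the Fasl and Tnfsf11 results was not tested.

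Tnf, Lta and Ltb lie next to each other in the major histocompatibility region, in the order Lst1, Ltb, Tnf, Lta with a microRNA gene between Ltb and Tnf. Lta can be secreted as a homotrimer that binds the TNF receptors, and it pairs with Ltb on the membrane to bind the lymphotoxin beta receptor. The 250 bases before the start of each gene are shown because these neighbouring genes are described together. In the middle window all 3 were higher with IL-27 at all 6 times, Tnf and Lta were called and Ltb was not, and the difference between the genes was not tested. The sequences are from RefSeq (GRCm38.p6), written 5′ to 3′ on the gene's strand. Capitals mark matches to the STAT motif TTCNNNGAA (in Lta and Ltb) and to the kappaB consensus (in Ltb).
Tnf, chr17:35202008-35202257, minus strand: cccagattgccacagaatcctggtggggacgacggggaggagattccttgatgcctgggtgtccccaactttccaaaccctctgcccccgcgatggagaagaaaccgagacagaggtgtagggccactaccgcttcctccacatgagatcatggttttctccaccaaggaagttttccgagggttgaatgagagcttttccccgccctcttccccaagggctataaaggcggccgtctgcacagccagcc
Lta, chr17:35205352-35205601, minus strand: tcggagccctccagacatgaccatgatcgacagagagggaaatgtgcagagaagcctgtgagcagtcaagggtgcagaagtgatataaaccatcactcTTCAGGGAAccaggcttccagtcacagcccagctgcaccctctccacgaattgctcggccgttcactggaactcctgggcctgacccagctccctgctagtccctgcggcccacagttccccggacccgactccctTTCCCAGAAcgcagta
Ltb, chr17:35194257-35194506, plus strand: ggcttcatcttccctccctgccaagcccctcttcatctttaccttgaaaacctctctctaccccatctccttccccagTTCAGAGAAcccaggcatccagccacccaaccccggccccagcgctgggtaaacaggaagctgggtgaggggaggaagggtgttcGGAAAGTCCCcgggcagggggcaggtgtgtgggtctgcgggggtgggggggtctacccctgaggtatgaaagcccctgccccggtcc

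5 motifs were searched on both strands of these windows. TTCNNNGAA, bound by STAT proteins, was found at 2 places in Lta, 152 and 16 bases before the start, at 1 in Ltb, 172 bases before it, and not in Tnf. It occurs in 7.02% of 32851 promoters of this length. The kappaB consensus was found once, in Ltb, 87 bases before the start (7.25% of promoters hold one). The AP-1 motif TGANTCA (6.75% of promoters) and the interferon response core (2.98%) were in none of the 6 member promoters that had a sequence. The NFAT core GGAAA, found in 55.6% of promoters, was in all 6, with 3 matches in Tnf, and it overlaps the kappaB match of Ltb and the STAT match of Lta nearest the start. Cd40lg had no matching sequence. A match is a string of letters and does not show binding.

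The windows of Tnfsf11 and Fasl are given for comparison, as the members with the largest late differences. Neither holds a match to a motif other than the NFAT core, which is common and was left in lower case.
Tnfsf11, chr14:78308044-78308293, minus strand: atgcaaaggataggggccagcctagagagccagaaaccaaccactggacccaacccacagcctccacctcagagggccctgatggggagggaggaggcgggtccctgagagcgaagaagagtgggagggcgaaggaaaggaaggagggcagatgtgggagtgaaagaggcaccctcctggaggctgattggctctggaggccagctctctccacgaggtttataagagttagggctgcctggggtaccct
Fasl, chr1:161788496-161788745, minus strand: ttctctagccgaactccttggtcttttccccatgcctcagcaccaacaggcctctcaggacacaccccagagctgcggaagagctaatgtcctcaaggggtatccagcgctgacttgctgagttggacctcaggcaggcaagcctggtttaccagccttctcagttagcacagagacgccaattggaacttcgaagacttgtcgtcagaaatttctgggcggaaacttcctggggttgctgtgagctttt

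Tnf, the founding member of the family and a trigger of inflammation, was highest at 4 h in both arms. Control arrays read 234.4 at 0.5 h, 794.2 at 1 h, 1638 and 3211 at 2 h, and 4661 at 4 h, and IL-27 arrays read 160.5, 439.8, 1845 and 3615, and 5440. The IL-27 arm was lower at 0.5 and 1 h and higher at 2 and 4 h, and the early difference was -0.14 ± 0.19 (SE; limma, adjusted p = 0.914).

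After 4 h the Tnf intensities of both arms went down. In the middle window the control arm had 318.2, 542.4 and 2222 (lowest, median, highest of 9) and the IL-27 arm 648.5, 1151 and 2730. The ranges overlapped because both arms were still high at 8 h, but the IL-27 arm was higher at all 6 times. The means differed 1.62-fold, and the difference was 0.84 ± 0.14 (SE; limma, adjusted p = 7.36e-05). Without the 12 h control array it was 0.73 (limma, adjusted p = 0.000511).

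In the late window the Tnf arms lay close together. The difference was -0.03 ± 0.13 (SE; limma, adjusted p = 0.929), with the IL-27 arm higher at 4 of 8 times. At 72 h the control arrays read 184.5 and 244.6 and the IL-27 arrays 161 and 231.1. The late minus middle difference was -1.71 in the IL-27 arm (limma, adjusted p = 0.00153) and -0.85 in the control arm (adjusted p = 0.0699). The latter was called without the arrays of 0.5, 4 or 18 h (-0.85, -0.85 and -0.98, limma, adjusted p = 0.0286, 0.0479 and 0.046).

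Lta was lowest at 0.5 h in both arms. In the first hours control arrays read 115.5, 146, 422.7 and 1149, and 2275, at 0.5, 1, 2 and 4 h, and IL-27 arrays read 110.9, 133.3, 277.5 and 830.4, and 2828. The early difference was -0.17 ± 0.31 (SE; limma, adjusted p = 0.956), with the IL-27 arm higher only at 4 h. In the middle window the control arm had 145.6, 1061 and 2001 (lowest, median, highest of 9) and the IL-27 arm 1749, 2230 and 3330. Only the control arrays of 8 h reached the range of the IL-27 arm.

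The middle difference of Lta was 1.32 ± 0.23 (SE; limma, adjusted p = 7.36e-05), with means 2.14-fold apart. The lowest control value is that of the 12 h array, and without it the difference was 1.03 (limma, adjusted p = 0.000276). Within the IL-27 arm Lta was higher in the middle than in the early window by 2.37 (limma, adjusted p = 2.06e-05). In control cells that step was 0.88 (limma, adjusted p = 0.131), and 1.18 (adjusted p = 0.0226) without the 12 h array. It was also called without the 4 h array (1.43, limma, adjusted p = 0.0106), and it was 0.44 without 0.5 h, 0.50 without 1 h and 0.56 without 8 h (adjusted p = 0.471, 0.418 and 0.349).

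In the late window the order of the Lta arms was the opposite. Control arrays had 1908, 2336 and 3989 and IL-27 arrays 1184, 1748 and 2200, with the IL-27 arm lower at 7 of 8 times. The difference was -0.59 ± 0.20 (SE; limma, adjusted p = 0.0331). This call is the least stable of those made in a window: it was lost in 7 of the alternatives tried, among them those without the arrays of 36, 42, 48, 54 or 72 h (-0.58, -0.54, -0.57, -0.56 and -0.52, limma, adjusted p = 0.0521, 0.109, 0.0545, 0.109 and 0.131) and without all arrays of suffix d (-0.57, adjusted p = 0.146). In control cells Lta rose by 1.47 from the middle to the late window (limma, adjusted p = 0.00407; 1.17 and 0.0086 without the 12 h control array), where 48.1% of all genes were called, and in the IL-27 arm the change was -0.44 (adjusted p = 0.251).

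**Figure D3:**
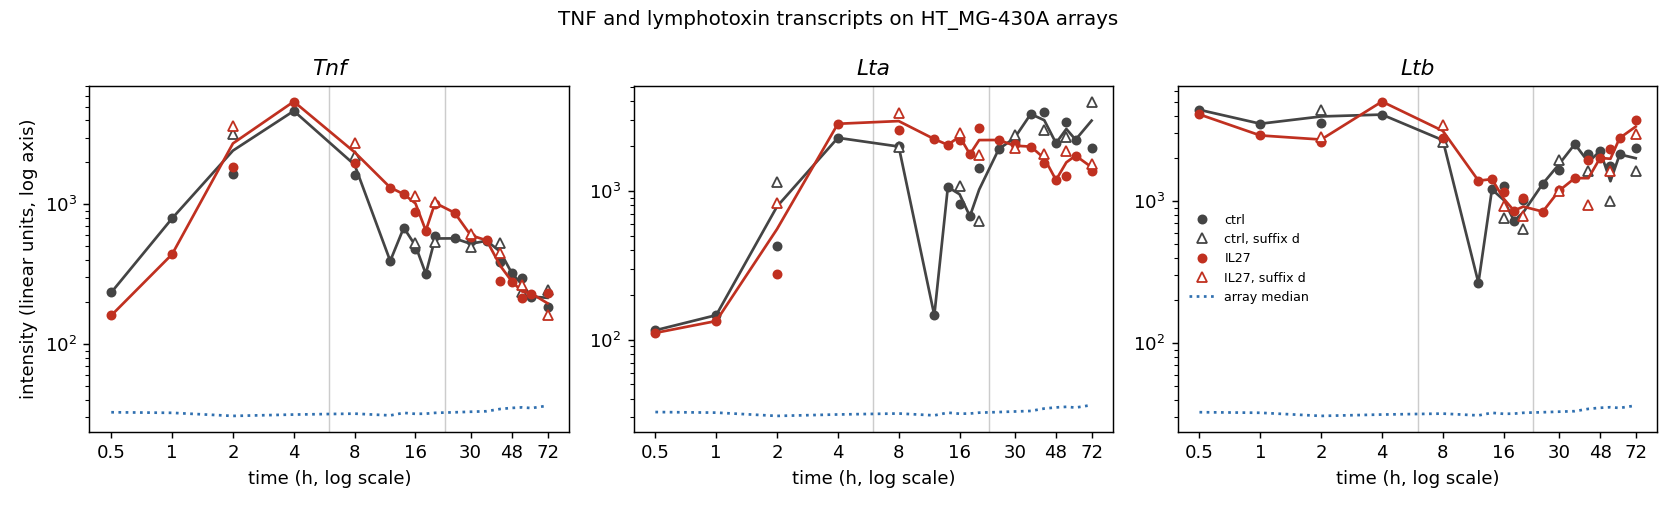
Intensity of Tnf, Lta and Ltb (log axis) against time in hours (log axis) for each HT_MG-430A array, control arrays in grey and IL-27 arrays in red, with triangles for arrays of suffix d, a line through the mean of each time, grey lines at window borders and a dotted line for the array median. Tnf peaks at 4 h in both arms and Lta separates by arm from 12 to 20 h, while Ltb falls from the early to the middle window in both arms.

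Ltb was high at the start in both arms and was lower in the middle than in the early window. Control arrays read 4388, 3503, 3531 and 4351, and 4062, at 0.5, 1, 2 and 4 h, and IL-27 arrays read 4074, 2896, 2588 and 2832, and 5018. In the middle window the arms spanned 265.6, 1024 and 2742 (control) and 782.6, 1153 and 3455 (IL-27), with the arms widely overlapping. The fall from the early window was -1.93 in control cells (limma, adjusted p = 1.82e-05; -1.70 without the 12 h control array) and -1.30 with IL-27 (adjusted p = 0.0016). From the middle to the late window Ltb rose by 0.82 in control cells (limma, adjusted p = 0.0139), where 48.1% of all genes were called. Without the 12 h control array that rise was 0.59. With IL-27 the same step was 0.36 (limma, adjusted p = 0.257). The IL-27 minus control difference in the middle was 0.40 ± 0.20 (SE; limma, adjusted p = 0.195), and 0.16 (adjusted p = 0.681) without the 12 h control array.

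The late Ltb values were 997.3, 1857 and 2517 in control cells and 842.2, 1792 and 3729 with IL-27, and the difference was -0.06 ± 0.17 (SE; limma, adjusted p = 0.872). Within that window the IL-27 arm lay below the control arm at 25 to 48 h and above it at 54, 60 and 72 h. A split of the late window, added after the data were seen, gave -0.65 at 25 to 36 h and 0.24 at 42 to 72 h. The difference of these, 0.89 ± 0.33 (SE; limma, adjusted p = 0.208), did not pass the test, and no other member's did, where 1.55% of all genes were called.

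CD40 ligand is the signal by which helper T cells license B cells and dendritic cells, and it is known as a transient surface protein. Cd40lg intensity was low outside the first hours. The control arrays read 20.1 and 22.34 at 0.5 and 1 h, 42.79 and 144 at 2 h, and 200.1 at 4 h, and the IL-27 arrays read 19.03 and 12.65, 54.79 and 171.6, and 158.4. By 8 h the arrays of both arms lay between 51.51 and 75.09, and in the late window no array of either arm was above its array median. Differences between arms were -0.04 ± 0.15 early, -0.02 ± 0.11 in the middle and -0.15 ± 0.10 late (SE; limma, adjusted p = 0.996, 0.936 and 0.298), none of which passed. Without the arrays of 2 h the late difference was -0.15 and was called (limma, adjusted p = 0.00491). The early to middle fall was called in both arms, at -0.69 in control cells (limma, adjusted p = 0.0145) and -0.67 with IL-27 (adjusted p = 0.0256). The latter was not called without the arrays of 16 or 20 h (-0.62 and -0.59, limma, adjusted p = 0.0573 and 0.0672).

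CD30 ligand, the product of Tnfsf8, engages CD30 on activated lymphocytes and gives signals that can support survival or death. Tnfsf8 was at 82.73 to 144.8 on control arrays up to 2 h and at 614 on that of 4 h, and at 97.77 to 155.3 and 569.9 with IL-27. The window differences up to 20 h did not pass the test, at 0.11 ± 0.20 early and 0.16 ± 0.15 in the middle (SE; limma, adjusted p = 0.956 and 0.519). In the middle window the IL-27 arm was higher at 5 of 6 times, with 284.8 against 116.5 at 12 h, where the control array stood apart. At 20 h the IL-27 arrays read 119.1 and 412.3 and the control arrays 256.3 and 310.6. Both arms were higher in the middle than in the early window, by 1.15 in control cells (limma, adjusted p = 0.00555) and 1.20 with IL-27 (adjusted p = 0.00446). In control cells this was not called without the arrays of 2 h (0.95, limma, adjusted p = 0.0618) or of suffix d (1.08, adjusted p = 0.0515).

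From 25 h the Tnfsf8 arms parted. Control arrays had 140, 253.8 and 435.2 (lowest, median, highest of 12) and IL-27 arrays 41.73, 77.27 and 101. The arms did not overlap, as for 0.656% of tested genes. The means differed 3.61-fold, and the difference was -1.47 ± 0.13 (SE; limma, adjusted p = 2.22e-11). In the IL-27 arm the gene fell by 2.2 on the log2 scale from the middle to the late window (limma, adjusted p = 8.07e-07), and in control cells the step was -0.58 (adjusted p = 0.0857). The control step was called without the 12 h control array (-0.76, limma, adjusted p = 0.0143) and without the 4 h array (-0.58, adjusted p = 0.0331). Single-time calls were made at 30, 42, 54 and 72 h, all times with 2 arrays per arm.

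**Figure D4:**
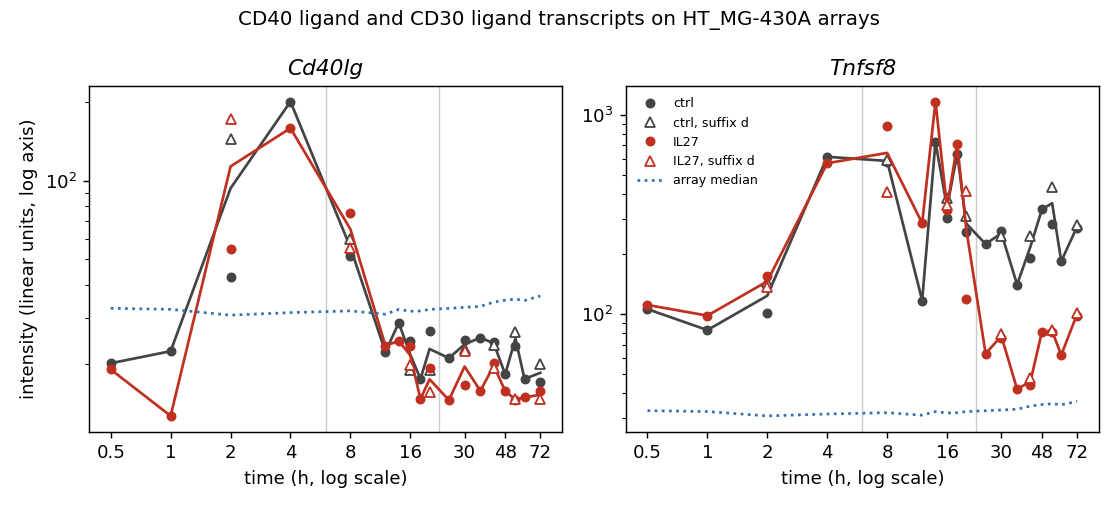
Intensity of Cd40lg and Tnfsf8 (log axis) against time in hours (log axis) for each HT_MG-430A array, control arrays in grey and IL-27 arrays in red, with triangles for arrays of suffix d, a line through the mean of each time, grey lines at window borders and a dotted line for the array median. Cd40lg exceeds the median only from 2 to 8 h in both arms, and all late IL-27 arrays of Tnfsf8, at 101 or less, lie below all late control arrays, at 140 or more.

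The change of the IL-27 effect over time was tested directly. Between the early and the late window 3 members were called, Tnfsf11 (-2.47 ± 0.33, SE), Fasl (-1.53 ± 0.25) and Tnfsf8 (-1.58 ± 0.23), beside 7.09% of all genes, with limma adjusted p of 2.79e-06, 7.9e-05 and 1.84e-05. Between the middle and the late window Tnf, Lta, Tnfsf8 and Tnfsf11 were called, all toward lower values with IL-27, beside 8.11% of genes. Between the early and the middle window Tnfsf11 and Fasl moved down and Tnf and Lta up, beside 1.24% of genes. These contrasts share arrays with one another and with the window differences they compare.

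Over the 18 single times 23 of 126 member and time pairs were called (18.3%), against 4.25% of all gene and time pairs. The 12 h comparison alone called 43.9% of all genes, and without it 18 of 119 member pairs (15.1%) and 1.91% of all pairs were called. All calls of Tnf, Lta and Ltb at single times fell at 12 h, so none of these 3 was called at any other single time. At the 8 times with 2 arrays, the SD between arrays of the same arm and time was 0.484 for Tnfsf11, 0.397 for Fasl, 0.33 for Tnf, 0.493 for Lta, 0.352 for Ltb, 0.32 for Cd40lg and 0.368 for Tnfsf8 on the log2 scale. The late differences of Tnfsf11, Fasl and Tnfsf8 were several times this spread, and that of Lta was close to it.

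Other ligands of the family were read from a list of 11 genes, of which 7 had a named probe set and 4 passed the filter on dim genes. None of the 4 was called early or in the middle window, and 2 were called lower with IL-27 late, where 9.77% of all genes were. These 2, Cd70 and Tnfsf4, lay above the array median on only 10 and 12 of the 52 arrays. Where a gene passes the filter only through the group in which it is high, it had to differ, so their values are a description and support nothing. The mean late intensity of Cd70, the ligand of CD27 and a costimulator, was 159.9 in control and 12.35 in IL-27 arrays, and that of Tnfsf4 (OX40 ligand) was 43.04 and 22.96. Tnfsf9 (4-1BB ligand) and Tnfsf14 (LIGHT) had late differences of -0.16 and -0.09 and did not pass.

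Of the 9 receptors of the ligands, all on the arrays, 4 passed the filter. Fas, the death receptor that Fas ligand binds, was higher with IL-27 in the early window, at a mean of 573.3 against 181.8 in control arrays, with a difference of 1.23 ± 0.20 (SE; limma, adjusted p = 0.000115). Its differences of 0.34 in the middle and 0.25 late did not pass. Tnfrsf1b, the TNF receptor found mostly on lymphoid cells, was lower with IL-27 in the middle window (-0.53, limma, adjusted p = 3.51e-05), and Tnfrsf1a, the widely expressed TNF receptor with a death domain, was higher late (0.22, adjusted p = 0.0265). Tnfrsf11a, the receptor of RANKL, and its decoy Tnfrsf11b, as well as Tnfrsf14, Ltbr and Tnfrsf8, lay above the array median on no array.

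Among 12 measured TNF receptor adaptors and death signalling genes, none was called early, 1 was lower in the middle window, and late 1 was higher and 1 lower. Of all tested genes 10.7% were called in the middle window and 18.5% late, so these counts are near the background. Traf5, an adaptor of several receptors of the family, was lower in both (-0.25 and -0.37 by limma, adjusted p = 0.0176 and 2.28e-05). Birc3, an inhibitor of apoptosis that NF-kB induces, was higher late (0.26, limma, adjusted p = 0.00609). Casp8, Fadd and Cflar, which act below Fas, had late differences of 0.11, 0.03 and 0.09 and did not pass the test.

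Of 10 tested NF-kB pathway genes, 1 was higher and 3 lower in the middle window, and 1 was higher and 5 lower late, where 10.7% and 18.5% of all genes were called in either direction. Rel, the c-Rel subunit used by activated lymphocytes, fell from a late mean of 324.9 to 173.5 (-0.80 ± 0.10, SE; limma, adjusted p = 1.25e-07). The inhibitors Nfkbia and Nfkbie were lower by limma in both windows (late -0.37 and -0.59, adjusted p = 1.32e-06 and 1.47e-05), and Nfkbib (-0.46, adjusted p = 0.00394) and the subunit Nfkb2 (-0.87, adjusted p = 0.00649) late. Map3k14, the kinase of the noncanonical branch, was higher late (0.19, adjusted p = 0.028). The list's late median was -0.24.

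Of 10 tested transcription factors downstream of the T cell receptor, 4 were higher with IL-27 in the middle window and none lower, where 4.82% of all genes were called higher and 5.85% lower. Jun (1.09, limma, adjusted p = 1.25e-05), Egr2 (0.74, adjusted p = 0.00013), Junb (0.89, adjusted p = 0.000252) and Egr1 (0.50, adjusted p = 0.00827) were those. Late, Junb was higher (0.51, limma, adjusted p = 0.0108) and Nr4a1, an immediate target of receptor signalling, lower (-0.65, adjusted p = 8.43e-05). With 1 higher and 1 lower of 10, the late count is near the 18.5% of all genes called. Early, Fosb was lower, with means of 440.6 in control and 368.1 in IL-27 arrays (-0.29, limma, adjusted p = 0.012), where 2.32% of all genes were called. Of 4 tested proteases that cut such ligands from the membrane, 1 was called lower in the middle window and 1 late. Of all genes 10.7% and 18.5% were called in these windows. The protease was Adam10 in both (-0.42 and -0.19, limma, adjusted p = 0.000133 and 0.0372), and Adam17, Sppl2a and Sppl2b were not called. Mmp7 and Mmp14 lay above the array median on no array.

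Patterns over the 52 arrays, which share time and arm, were compared by Pearson correlation on the log2 scale, as a description. The genes nearest to Tnfsf11 were Cd83 (r = 0.911), Marcksl1 (0.813), Itm2a (0.761) and Swap70 (0.734). Nearest to Fasl were Gata3 (0.821), Trim44 (0.794), Pde8a (0.789) and Cd74 (0.761). Nearest to Tnf were Tmem185b (0.885), Grasp (0.873), Dnajc27 (0.87) and Purb (0.869), and nearest to Ltb were H2-D1 (0.856), Btg2 (0.842), Gimap4 (0.833) and Cic (0.822). Cd83 codes for an activation marker of lymphocytes and dendritic cells, and Gata3 for the transcription factor that defines Th2 cells. Among the members themselves, Tnf went most closely with Cd40lg (r = 0.814) and not with its neighbours Lta (0.142) and Ltb (0.213), while Tnfsf11 and Fasl had an r of 0.642. Without the 12 h control array the nearest 4 of Fasl were the same genes, 3 of those of Tnfsf11 stayed, with Nfkb2 (0.745) in place of Swap70, and Tnf and Ltb kept 2 and 1 of theirs.

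The Mouse430A_2 arrays are a second array type with its own normalization, whose levels are not set against those of HT_MG-430A. Before stimulation, on the control array of 0 h, Ltb read 7609 and Tnfsf11 73.57, with Tnf at 160, Lta at 258.5, Fasl at 199.1, Cd40lg at 49.85 and Tnfsf8 at 404.5. On the control array of 4 h Tnfsf11 was 37 times that level, Tnf 27.8 times, Lta 8.45, Cd40lg 6.3, Tnfsf8 3.41 and Fasl 2.38 times, and Ltb 0.755 times. With 1 array at each of these times the ratios carry no replicate check. The 0 h values of Tnfsf11 and Cd40lg lay below the median of that array, 76.75, so their ratios rest on dim values. All members but Ltb were thus higher at 4 h than at 0 h on these arrays.

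Tnfsf11 read 2720 in control and 1669 in IL-27 cells at 4 h, 1223 and 190.5 at 16 h, and 2142 and 65.35 at 48 h. Fasl read 473.8 and 417.2, 420.6 and 61.95, and 508.9 and 71.34 at the same times. By the bright probe sets both genes were lower with IL-27 at all 3 times, with the smallest gap at 4 h. The dimmer Fasl probe set went the other way at 4 h, with 206.1 in control and 234.4 in IL-27 cells. It was lower with IL-27 at 16 and 48 h. The mean difference of Tnfsf11 was -2.56 ± 0.57 (SE; limma, adjusted p = 0.248) and that of Fasl -1.61 ± 0.39 (adjusted p = 0.294), with 2 residual degrees of freedom.

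No gene passed limma's adjusted test on these 6 arrays (0 of 6508, 0%), where 480 genes (7.38%) had an unadjusted p under 0.05 and the lowest adjusted p was 0.129. Tnf read 4448 in control and 6903 in IL-27 cells at 4 h, 909.3 and 1570 at 16 h, and 699.3 and 556.7 at 48 h, and Lta read 2184 and 2820, 1482 and 3440, and 3576 and 1850. Both were higher with IL-27 at 4 and 16 h and lower at 48 h. Tnfsf8 read 1378 and 1512, 885 and 1075, and 500.2 and 217.9, so that it was lower with IL-27 only at 48 h. Of 21 member and time differences, 18 had the sign found on HT_MG-430A arrays at the same time.

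**Figure D5:**
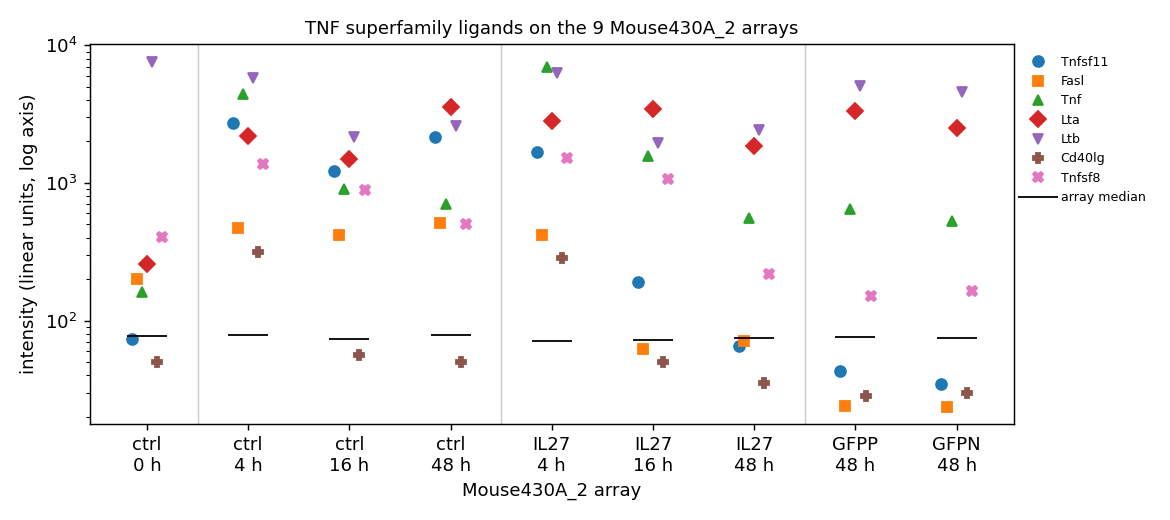
Intensity (log axis) of each of the 7 ligands on single Mouse430A_2 arrays, by arm and time (0, 4, 16 and 48 h, and the arrays named GFPP and GFPN at 48 h). Each point is 1 array, short black lines are the array medians, and heights of different genes are not comparable. By the brightest probe set, the one drawn, Tnfsf11 and Fasl lie lower in the IL-27 than in the control array at 4, 16 and 48 h.

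The arrays named GFPP and GFPN at 48 h gave Tnfsf11 intensities of 42.66 and 34.65, Fasl intensities of 24.06 and 23.71, and Tnfsf8 intensities of 150 and 163.5. Both arrays lay below the 48 h arrays of either arm for these 3 genes. Their Tnfsf11 and Fasl values were also under the array medians of 76.26 and 74.3, as were those of the 48 h IL-27 array (median 74.52). Lta read 3316 and 2491, a log2 difference of 0.41, Tnf 647.9 and 525.5, and Ltb 5074 and 4589. The SD of the log2 difference over 6612 genes was 0.149, and 0.151% of genes differed more than 2-fold. With 1 array of each name there is no test.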

How the data were processed

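Arrays were grouped by array type, arm and time from their titles. The deposited values are intensities per probe set on a linear scale. MAS5 is named in the submitters' processing notes, without a version, and its scaling and background settings were not found in those notes. Array medians of one type were alike, so the intensities were used as the authors deposited them, with no further normalization, and the array types were tested apart. Of 22626 probe sets, 20173 have 1 gene in the platform annotation, 942 several and 1511 none, and only the first kind was used.

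The scale of all tests was log2(intensity + 32), and the tool limma 3.58.1 under R 4.3.3 (moderated spread with an intensity trend, Benjamini-Hochberg adjustment over all genes). The filter asked for 5 HT_MG-430A arrays (3 on Mouse430A_2) on which a gene exceeded the median of that array. The window model fitted a level for each time and 1 IL27 coefficient per window. Single times had a mean per arm and time, with 16 residual degrees of freedom. Steps between windows within an arm were fitted on the arrays of that arm alone, with a mean per window. Changes with time inside a window count there as spread. The number of arrays limits the precision. On simulated data, a constant shift added to independent noise around a flat level, the window fit recovered 97% of early changes of 1 log2 unit. Of the calls made there, 5.29% were false early, 7.44% in the middle and 6.1% late. The simulation held no time course, no spread shared by arrays of suffix d and no array that stands apart. It therefore does not give the power of the test in these data.

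The members, windows and gene lists were chosen with earlier results of these data known. Named are all members, the 4 genes most correlated with Tnfsf11, Fasl, Tnf and Ltb, and up to 4 members per list with the smallest late adjusted p. Fas, Tnfrsf1b, Fosb, Jun, Egr1, Egr2 and a few genes that did not pass were named after their values were seen. The suffix d was not treated as pairing arrays: the gaps between the 2 arrays of a time correlated between arms by over 0.1 at 7 of 8 times but by -0.011 at 30 h, and pairing was accepted only if every time passed. The fit with it as a block is given with the alternatives.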

Additional observations from a re-analysis of the deposited data

Results flagged for a closer look

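The IL-27 effect on Tnfsf11, Fasl, Tnf, Lta and Tnfsf8 differed between windows by a test of the difference itself (limma, adjusted over all 7163 genes). Of all genes, 7.09% were called late minus early, 8.11% late minus middle and 1.24% middle minus early. The late minus early change was -2.47 for Tnfsf11 (adjusted p = 2.79e-06), -1.53 for Fasl (7.9e-05) and -1.58 for Tnfsf8 (1.84e-05). The late minus middle change was -0.90 for Tnfsf11 (adjusted p = 0.0308), -0.86 for Tnf (0.00302), -1.91 for Lta (4.21e-05) and -1.62 for Tnfsf8 (3.95e-07). The middle minus early change was -1.56 for Tnfsf11 (adjusted p = 0.0134), -1.11 for Fasl (0.0205), 0.98 for Tnf (0.0275) and 1.49 for Lta (0.0387). Tnfsf11 passed at both steps, Fasl at the first, Tnfsf8 at the second, and Tnf and Lta at both with opposite signs. The middle minus early calls were lost in 4 alternatives each for Tnfsf11 and Tnf, 7 for Fasl and 11 for Lta. Tnfsf11 lost it without 2, 16 or 20 h (-1.62, -1.49 and -1.39, limma, adjusted p = 0.0524, 0.0511 and 0.0527), and Tnf without 0.5, 1, 16 or 20 h (0.90, 0.81, 0.95 and 0.98, adjusted p = 0.0785, 0.161, 0.0931 and 0.0674). Fasl lost it without 0.5, 1, 4, 16 or 20 h (-1.08, -1.04, -1.01, -1.07 and -1.07, limma, adjusted p = 0.0523, 0.0942, 0.0703, 0.0655 and 0.0653). Lta lost it without 0.5, 1, 2, 16, 18, 20, 30, 42 or 54 h (1.27 to 1.54, limma, adjusted p = 0.0527 to 0.216). The late minus middle call of Tnfsf11 was lost without 8, 42 or 54 h (-0.62, -0.87 and -0.79, limma, adjusted p = 0.149, 0.064 and 0.104). No group held 4 or more arrays, so single arrays were not tested for standing apart within a group.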

How the results depend on the processing

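The number of members called was 0 early and 3 late minus early in all 29 alternatives, 4 to 5 in the middle window and 3 to 5 late. Middle minus early it was 4 as reported, 0 without 16 h or 20 h, 1 without 0.5 h or 1 h and 2 without 2 h or with the probe sets of a gene averaged, and late minus middle it was 3 to 5. On Mouse430A_2 it was 0 to 4 when 1 time was left out, and all genes called there were 0 with all times, 102 without 16 h and 170 without 48 h. Signs turned only for member differences that did not pass in the reported fit, and the cause was not tested. Late, Tnf was 0.011 when single-time contrasts were averaged and 0.001 without the arrays of suffix d. From the early to the middle window of the IL-27 arm, Tnf was 0.011 at a pseudocount of 1 and 0.208 without suffix d. Fasl from the middle to the late control window was -0.268 without suffix d, the middle minus early effect on Tnfsf8 was -0.068 without the 12 h control array, and Ltb on Mouse430A_2 was 0.017 after quantile normalization. With 1 time or array left out, early differences ran from -0.352 to 0.023 for Tnf, -0.29 to 0.053 for Lta and -0.2 to 0.028 for Cd40lg, and the middle one of Cd40lg from -0.065 to 0.018. Late ones ran from -0.08 to 0.035 for Tnf and -0.22 to 0.049 for Ltb. Late minus early ran from -0.048 to 0.327 for Tnf, -0.034 to 0.3 for Ltb and -0.18 to 0.047 for Cd40lg, and middle minus early from -0.046 to 0.182 for Cd40lg and -0.068 to 0.174 for Tnfsf8. Within arms, Fasl ran from -0.179 to 0.222 (control, late minus middle) and Tnf from -0.712 to 0.66 (IL-27, middle minus early). On Mouse430A_2, Lta ran from -0.288 to 0.78, Ltb from -0.114 to 0.018 and Tnfsf8 from -0.479 to 0.202. Lta passed there without 48 h (limma, adjusted p = 0.00443). Tnfsf11 and Fasl, which did not pass with all times, passed in 2 of 10 alternatives each, and Tnf in 1.

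Title suffix and time as a replicate block lost no call of a member, and Cd40lg late then passed (-0.152, limma, adjusted p = 0.0159), as it did without 2 h (0.00491). With that block the count over all genes went from 89 to 154 middle minus early, and from 166 to 223 early, 764 to 1060 in the middle and 1325 to 1654 late. Ltb passed in the middle window when single-time contrasts were averaged (0.524, adjusted p = 0.0178). Over all genes the early count of 166 was 9 without 2 h and 57 without suffix d, the middle count of 764 was 439 without 16 h, 462 without 20 h and 1609 with averaged contrasts, and the late count of 1325 was 883 without 54 h. Late minus early, 508 became 158 without 2 h and 261 without suffix d; late minus middle, 581 ran from 330 to 1168; middle minus early, 89 ran from 31 to 428; and late minus middle in control cells, 3347 became 2200 without suffix d. Dim signals limit Cd40lg after 8 h, where every HT_MG-430A array is below its median.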
